A study of Mus musculus with 9 samples.

Results

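The genes described here are 9 surface markers used to place a cell in the B-cell maturation sequence: Spn, Cd24a, Bst1, Cd93, Cd22, Ms4a1, Cr2, Fcer2a and Ptprc. They were chosen by name and are 9 of the 50686 genes counted in every library. The libraries came from 3 transformed mouse bone marrow cell lines with the background strain C57BL/6N, all carrying the BCR/ABLp185 oncogene, which is a constitutively active tyrosine kinase that turns bone marrow progenitors into leukemic lymphoid cells and was delivered by a retrovirus. The wt line has both Stat5 genes, the Stat5a-/- line (STAT5A-ko in the labels) lacks Stat5a and keeps Stat5b, and the Stat5b-/- line (STAT5B-ko) lacks Stat5b and keeps Stat5a. Each genotype is 1 line in 3 technical replicates, so that every p-value below compares these lines, with the spread between their libraries, and not independent lines of a genotype. The study's methods give young mice for its animal experiments as a whole, without naming the donors of these lines, and no treatment is named. A free-text description deposited with the knockout libraries calls them wt, against their titles and genotype labels, and the titles were followed.

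B cells arise in the bone marrow from progenitors that rearrange their immunoglobulin genes in an ordered way, heavy chain at the pro-B stage and light chain at the pre-B stage, before an immature cell with surface IgM leaves for the spleen. Surface proteins come and go on this path. CD43 (Spn) marks progenitors and pro-B cells, CD24 (Cd24a) rises during the progenitor stages, BP-3 (Bst1) and CD93 mark developing cells, and CD22, CD20 (Ms4a1), CD21 (Cr2) and CD23 (Fcer2a) belong to later stages, with CD21 and CD23 highest after the cell has left the marrow. CD45 (Ptprc) is on all nucleated blood cells, and its B-lineage form is CD45R. STAT5A and STAT5B are transcription factors activated by the interleukin-7 receptor in early B cells and by BCR/ABL in transformed ones.

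The libraries held between 11948136 and 19016396 counted reads, and their 10 largest genes took between 7.25% and 9.66% of them. The deleted genes were lowest in their own lines. Stat5a had 36 to 48.2 normalized CPM (counts scaled to a common library total with edgeR's TMM factors) in wt, 11.8 to 13.6 in Stat5a-/- and 72.2 to 91.7 in Stat5b-/- libraries. Stat5b had 103 to 107 in wt, 124 to 156 in Stat5a-/- and 58.5 to 72.3 in Stat5b-/- libraries, so that reads on the deleted gene remained in both knockout lines. Against wt, the log2 fold change of Stat5a in Stat5a-/- was -1.80 and that of Stat5b in Stat5b-/- was -0.73. The latter lay within the fold limit of 1 used below. The labelled cell type was bone marrow cells, and the B-lineage genes Cd79a, Cd79b and Pax5 were detected in all 3 lines, at means of 713, 626 and 1217 normalized CPM in wt. T-cell genes were detected as well. The sum of 16 T-cell markers lay between 757 and 1041 normalized CPM in wt, 1162 and 1379 in Stat5a-/- and 1760 and 2500 in Stat5b-/- libraries, with 0 of the 16 markers at 0 in any library, and Thy1, Cd3e and Cd8a the highest of them by normalized CPM, which is not scaled by length. In RNA from a whole culture, fewer cells with a marker and less RNA of it per cell cannot be told apart.

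All 9 markers passed the filter on low counts that left 13852 genes for testing. A gene is said to have risen or fallen where edgeR's quasi-likelihood test gave a Benjamini-Hochberg adjusted p under 0.05 and its absolute log2 fold change above 1. In Stat5a-/- against wt, Bst1 and Cd22 rose and no marker fell. These are 2 of 9 markers, where 7.75% of all tested genes rose and 6.49% fell. In Stat5b-/- against wt, Ms4a1 alone rose and no marker fell, where 10.6% of all tested genes rose and 8.44% fell. Between the knockout lines, Ms4a1 was higher and Bst1 and Cd22 were lower in Stat5b-/-, against backgrounds of 4.81% higher and 6.6% lower. By the adjusted p alone, without the fold limit, 4 markers were higher (Bst1, Cd22, Ptprc, Spn) and 1 lower (Cd93) in Stat5a-/-, with 19.8% and 16.3% of all genes. In Stat5b-/- 7 were higher (Bst1, Cd22, Cd24a, Fcer2a, Ms4a1, Ptprc, Spn), with 24.2% of all genes, and 0 were lower, with 22%. Between the knockout lines 6 were higher in Stat5b-/- (Cd24a, Cd93, Fcer2a, Ms4a1, Ptprc, Spn) and 2 lower (Bst1, Cd22), with 16.4% and 17.5% of all genes. Counted in either direction, 14.2%, 19.1% and 11.4% of all genes passed both limits in the 3 comparisons and 36%, 46.2% and 33.9% the adjusted p alone. At an unadjusted p under 0.05, Cd93 and Cr2 were lower in Stat5a-/- and Cr2 in Stat5b-/-, and DESeq2 called the same number of markers as edgeR in each comparison and direction. The median log2 fold change of the 9 markers was 0.26 in Stat5a-/- and 0.80 in Stat5b-/-, beside 0.0099 and 0.023 over all tested genes. Both comparisons use the same wt libraries.

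**Figure D1:**
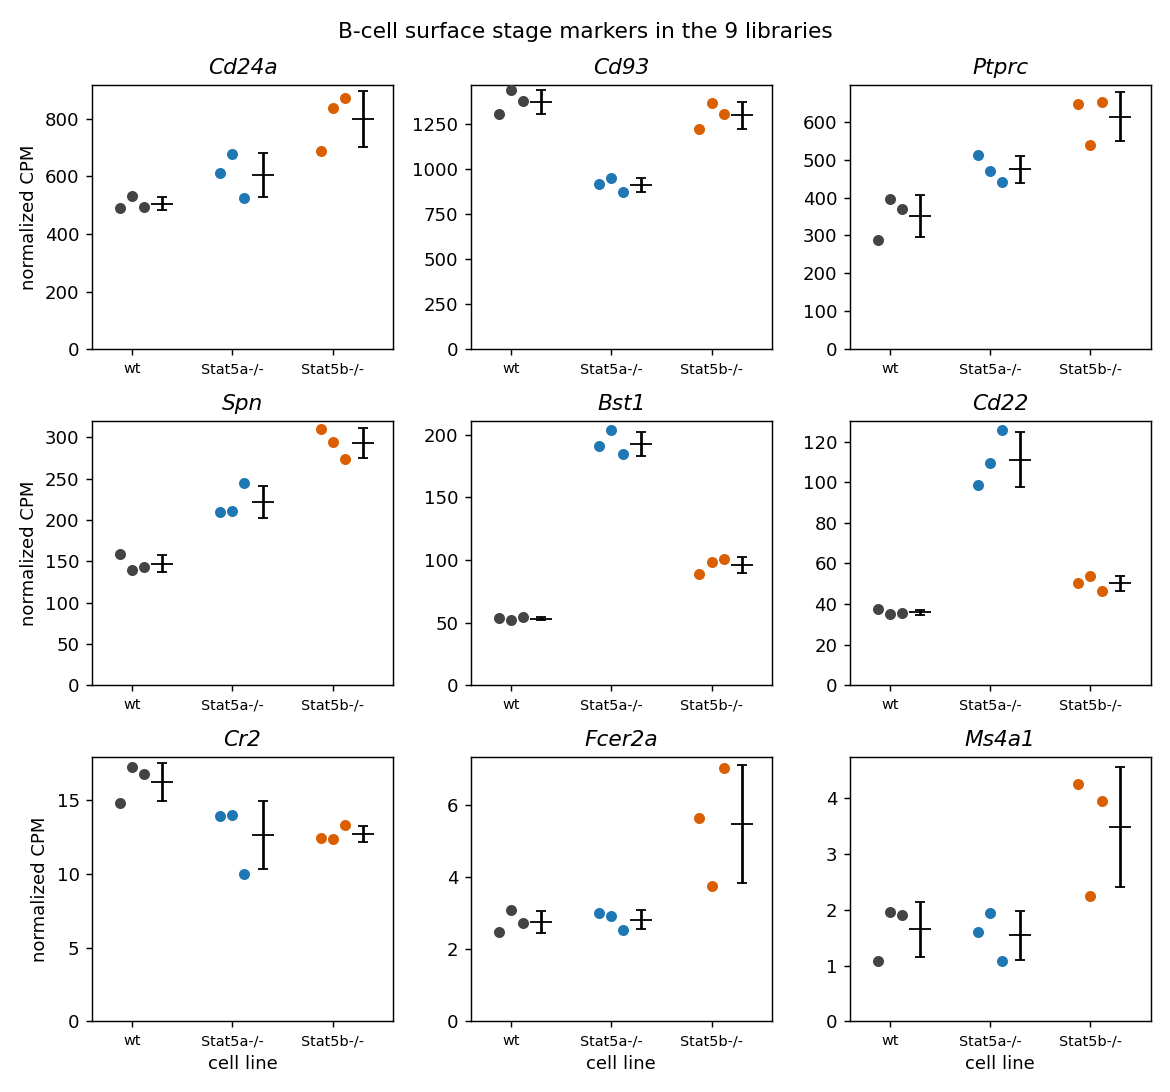
Normalized CPM of each stage marker in the 9 libraries, by cell line, with 1 panel per gene and its own linear axis from 0. Each point is a library, and the black mark and bar give the mean and SD of a line (n = 3). Bst1 and Cd22 stand highest in Stat5a-/-, Spn, Cd24a and Ptprc have their highest mean in Stat5b-/-, and Cd93 is lowest in Stat5a-/-.

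Among the progenitor markers, Spn is a mucin-like sialoglycoprotein of the leukocyte surface (ENSMUSG00000051457.7, chromosome 7 from 127132232 to 127137823 of GRCm38, minus strand). It had 159, 139.8 and 143 normalized CPM in the wt libraries, 210.1, 211 and 245 in Stat5a-/- and 310.2, 295 and 274 in Stat5b-/-. The 3 lines did not overlap, with every wt library below every Stat5a-/- library and those below every Stat5b-/- library. Stat5a-/- lay above wt by 0.59 on the log2 scale (standard error 0.10, adjusted p = 4.63e-04, edgeR) and Stat5b-/- by 0.99 (0.10, 4.39e-06), the latter just under the fold limit. It passed that limit without wt replicate 1 (1.05) or Stat5b-/- replicate 3 (1.04). Stat5b-/- lay 0.40 above Stat5a-/- (0.10, 0.00845).

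Cd24a encodes CD24, the heat-stable antigen, a small glycosylated protein held by a lipid anchor (ENSMUSG00000047139.9, chromosome 10 from 43578284 to 43584265, plus strand). It had 489.7, 533 and 494 normalized CPM in wt, 612, 678 and 524 in Stat5a-/- and 688, 835 and 872 in Stat5b-/-. The Stat5b-/- libraries all lay above the others, while the lowest Stat5a-/- library lay within the wt range. On the log2 scale Stat5b-/- differed from wt by 0.66 (standard error 0.12, adjusted p = 6.36e-04, edgeR) and Stat5a-/- by 0.26 (0.12, 0.116), where the 95% interval ran from -0.0025 to 0.52. The Stat5a-/- value passed the adjusted p limit, within the fold limit, in 2 of the alternative fits described further on (0.00315 and 0.0106). Stat5b-/- lay 0.40 above Stat5a-/- (0.12, 0.0216), where 4 alternative fits gave an adjusted p of 0.0658 to 0.417. Of its 50-base exon windows, 2.75% occur also in the gene Gm6212, and reads from those windows could not be assigned to a single place.

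Bst1 encodes BP-3 (CD157), an ectoenzyme of the ADP-ribosyl cyclase family found on bone marrow stroma and developing B cells (ENSMUSG00000029082.17, chromosome 5 from 43818885 to 43843986, plus strand). It had 53.4, 52.1 and 54.6 normalized CPM in wt, 191, 203 and 185 in Stat5a-/- and 88.6, 98.3 and 101 in Stat5b-/-. The lines did not overlap, and the order was wt, Stat5b-/-, Stat5a-/-. Its log2 fold change in Stat5a-/- was 1.85 (standard error 0.095, adjusted p = 6.04e-09, edgeR), the largest rise among the 9 markers in either comparison with wt. In Stat5b-/- it was 0.85 (0.093, 8.37e-06), and Stat5b-/- lay below Stat5a-/- by -1.01 (0.092, 2.77e-06). The last value is at the fold limit and lay inside it without Stat5a-/- replicate 2 (-0.98) or without Stat5b-/- replicate 1 (-0.96).

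The gene next to Bst1 on the side of higher coordinates, 24.6 kb away, is Cd38, its paralog in the same enzyme family and a surface marker of B cells itself. Cd38 had 78.2 to 101.8 normalized CPM in wt, 22.5 to 30.8 in Stat5a-/- and 6.70 to 8.16 in Stat5b-/- libraries, with log2 fold changes of -1.75 (standard error 0.14, adjusted p = 5.75e-07, edgeR) and -3.66 (0.16, 1.42e-09). Between the knockout lines Cd38 differed by -1.92 (adjusted p = 1.12e-06), lower in Stat5b-/-, so that Bst1 rose and Cd38 fell in Stat5a-/- against wt, while in Stat5b-/- both lay below Stat5a-/-. Bst1 shares 2.95% of its exon bases with Fbxl5 and none with Cd38.

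Cd93 encodes a C-type lectin-like receptor that is carried by early B cells and immature emigrants and lost on mature follicular cells (ENSMUSG00000027435.8, chromosome 2 from 148436640 to 148443563, minus strand). It had 1305, 1439 and 1378 normalized CPM in wt, 918, 950.3 and 873 in Stat5a-/- and 1224, 1372 and 1306 in Stat5b-/-. The Stat5a-/- libraries lay below all others, while wt and Stat5b-/- overlapped. Its log2 fold change in Stat5a-/- was -0.59 (standard error 0.096, adjusted p = 3.16e-04, edgeR), within the fold limit. In Stat5b-/- it was -0.080 (0.096, 0.526), with a 95% interval from -0.29 to 0.13. Stat5b-/- lay 0.51 above Stat5a-/- (0.096, 0.0013).

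The later markers differed among themselves in both knockout lines. Cd22 encodes a sialic acid-binding lectin that dampens signals of the B-cell receptor (ENSMUSG00000030577.14, chromosome 7 from 30865402 to 30880342, minus strand). It had 37.4, 35 and 35.7 normalized CPM in wt, 98.5, 109 and 126 in Stat5a-/- and 50.3, 54.1 and 46.3 in Stat5b-/-. The lines did not overlap, in the same order as for Bst1. Relative to wt, Cd22 had a log2 fold change of 1.62 in Stat5a-/- (standard error 0.11, adjusted p = 1.18e-07, edgeR) and of 0.48 in Stat5b-/- (0.11, 0.00345), and Stat5b-/- lay below Stat5a-/- by -1.15 (0.11, 4.81e-06). The last call was lost in a test against the fold limit itself and with a T-cell covariate described further on (-0.87). Of the exon bases of Cd22, 9.5% lie under another gene, Gm29439, so that reads there are uncertain. The neighbour Ffar1, 3.84 kb away, rose in both knockout lines (log2 fold changes of 1.32 and 1.44) from a wt mean of 0.549 normalized CPM.

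Ms4a1 encodes CD20, a tetraspanning protein that appears at the pre-B stage and stays until plasma cell differentiation (ENSMUSG00000024673.9, chromosome 19 from 11249675 to 11266241, minus strand). It was the least abundant marker, with 12 to 62 reads in a library. It had 1.08, 1.97 and 1.91 normalized CPM in wt, 1.61, 1.95 and 1.08 in Stat5a-/- and 4.25, 2.26 and 3.96 in Stat5b-/-. All Stat5b-/- libraries lay above all others, the lowest of them by little, and wt and Stat5a-/- overlapped. Ms4a1 had a log2 fold change of 1.06 in Stat5b-/- (standard error 0.30, adjusted p = 0.0118, edgeR) and of -0.10 in Stat5a-/- (0.34, 0.856), where the 95% interval ran from -0.84 to 0.65. The rise in Stat5b-/- was not called without wt replicate 1 (0.84, adjusted p = 0.0456), Stat5b-/- replicate 1 (0.86, 0.0593) or Stat5b-/- replicate 3 (0.96, 0.0334). The difference of 1.15 from Stat5a-/- (0.32, 0.0147) was not called without Stat5a-/- replicate 3 (0.98, 0.0479) or Stat5b-/- replicate 1 (0.98, 0.0572).

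Fcer2a encodes CD23, the low-affinity IgE receptor of mature follicular B cells (ENSMUSG00000005540.10, chromosome 8 from 3681737 to 3694175, minus strand). With 28 to 92 reads in a library it had 2.47, 3.08 and 2.71 normalized CPM in wt, 3.01, 2.93 and 2.52 in Stat5a-/- and 5.62, 3.76 and 7.01 in Stat5b-/-. The Stat5b-/- libraries lay above the others. Against wt they differed by 0.97 on the log2 scale (standard error 0.23, adjusted p = 0.00346, edgeR), just under the fold limit, and Stat5a-/- by 0.033 (0.25, 0.937), with a 95% interval from -0.50 to 0.57. It passed the fold limit in Stat5b-/- without wt replicate 2 (1.06) or Stat5b-/- replicate 2 (1.18).

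Cr2 encodes the complement receptors CD21 and CD35, which lower the threshold of the B-cell receptor (ENSMUSG00000026616.15, chromosome 1 from 195136811 to 195176716, minus strand). It had 14.8, 17.2 and 16.7 normalized CPM in wt, 13.9, 14 and 10 in Stat5a-/- and 12.4, 12.4 and 13.3 in Stat5b-/-. Every knockout library lay below every wt library. For Cr2, log2 fold changes of -0.36 (standard error 0.15, adjusted p = 0.0716, edgeR) in Stat5a-/- and -0.36 (0.14, 0.0588) in Stat5b-/- were found. Neither passed the adjusted p limit in the main edgeR fit, of all 9 libraries with TMM factors. The value in Stat5b-/- did pass it, within the fold limit, in 7 alternative fits, among them DESeq2 (adjusted p = 0.0345), RLE factors (0.0418) and a fit of the 2 lines alone (0.0355). That in Stat5a-/- passed it in 1 alternative fit (0.0399). The 95% intervals were -0.67 to -0.045 in both, before adjustment over all genes. Between the knockout lines the difference was 0.0018 (0.15, 0.994), with an interval from -0.32 to 0.32. Cr2 was the marker of the mature cell that had a lower mean in both knockout lines, beside Ms4a1 and Fcer2a with a higher mean in Stat5b-/-.

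Ptprc encodes CD45, the receptor tyrosine phosphatase of all nucleated blood cells (ENSMUSG00000026395.16, chromosome 1 from 138062861 to 138175708, minus strand). Gene counts do not separate its splice forms, so CD45R cannot be read from them. Ptprc had 288, 395 and 371 normalized CPM in wt, 513, 469 and 442 in Stat5a-/- and 647, 538 and 653 in Stat5b-/-, and the lines did not overlap. Stat5a-/- exceeded wt by 0.43 on the log2 scale (standard error 0.13, adjusted p = 0.0184, edgeR) and Stat5b-/- by 0.80 (0.13, 2.32e-04), both within the fold limit. In Stat5a-/- the adjusted p was 0.0745 without wt replicate 1 and 0.0942 without Stat5a-/- replicate 1. The steps from wt to Stat5a-/- to Stat5b-/- had the same order as the T-cell marker sums of the lines, as did the means of Spn, Cd24a and Fcer2a.

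**Figure D2:**
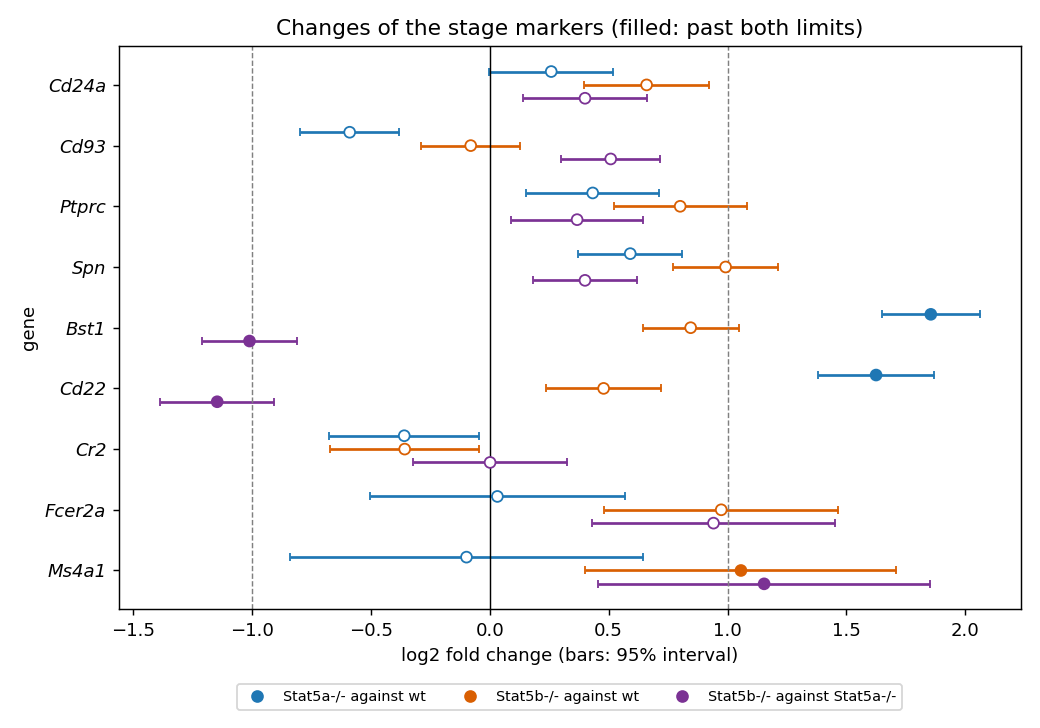
Log2 fold change of each stage marker in the 3 comparisons, from edgeR's fit of all 9 libraries, with bars for the 95% interval and filled points past both limits (dashed lines mark a log2 fold change of 1 in either direction). Bst1 and Cd22 lie beyond the line in Stat5a-/- against wt at 1.85 and 1.62, and Ms4a1 in Stat5b-/- at 1.06 with an interval from 0.40 to 1.71.

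T cells also carry CD45, and the T-cell markers moved with some of the stage markers. Of the 16 T-cell markers, 1 (Lck) rose in Stat5a-/- and 15 rose in Stat5b-/-, with medians of 0.41 and 1.15. Among all tested genes 7.75% and 10.6% rose. The order of the libraries by T-cell sum was that by Ms4a1 in 3 of 3 lines, that by Cr2, Cd24a or Cd93 in 2, that by Fcer2a, Ptprc or Bst1 in 1 and that by Cd22 or Spn in 0. The deviations from the line means correlated over the 9 libraries with r = 0.97 for Ms4a1, 0.92 for Ptprc, 0.83 for Fcer2a and 0.60 for Cr2, and with 0.12 for Cd24a, 0.086 for Cd93, -0.14 for Bst1, -0.55 for Spn and -0.64 for Cd22. Over all 9 libraries, with the differences between lines included, r with the T-cell sum was 0.97 for Ptprc, 0.90 for Fcer2a, 0.87 for Ms4a1, 0.87 for Cd24a, 0.86 for Spn, 0.32 for Bst1, 0.13 for Cd22, 0.0012 for Cd93 and -0.43 for Cr2. These are descriptions over libraries that share lines and depth, without a test. Per 1000 normalized CPM of T-cell markers, Ms4a1 had 0.931 to 1.98, Fcer2a 2.12 to 3.27 and Ptprc 259 to 385 normalized CPM in the 9 libraries. The highest of these ratios was 1.49 times the lowest for Ptprc, 1.54 for Fcer2a, 1.82 for Spn, 2.13 for Ms4a1 and 2.35 for Cd24a. It was 3.52 times the lowest for Cd93, 3.94 for Cr2, 4.48 for Bst1 and 5.52 for Cd22, so that a narrow range was not particular to Ms4a1, Fcer2a and Ptprc.

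A fit with the log2 T-cell sum as a covariate was added after the values had been seen. The T-cell sums of the 3 lines do not overlap (757 to 1041 normalized CPM in wt, 1162 to 1379 in Stat5a-/-, 1760 to 2500 in Stat5b-/-), so that line and sum cannot be told apart in any of the 3 comparisons, and the values with the covariate are given as a description. In Stat5a-/- against wt, Bst1 had 1.88 (adjusted p = 1.73e-06, edgeR) and Cd22 1.80 (4.74e-06) with it. For Stat5b-/- against wt, the sign turned for Ms4a1 (-1.42, 0.146), Fcer2a (-0.45, 0.643) and Ptprc (-0.12, 0.803). Spn in the same comparison had 1.32 (0.0103), past the fold limit, and Cd24a 0.55 (0.349). In Stat5a-/- Ms4a1 had -1.04 (0.0226) with the covariate.

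**Figure D3:**
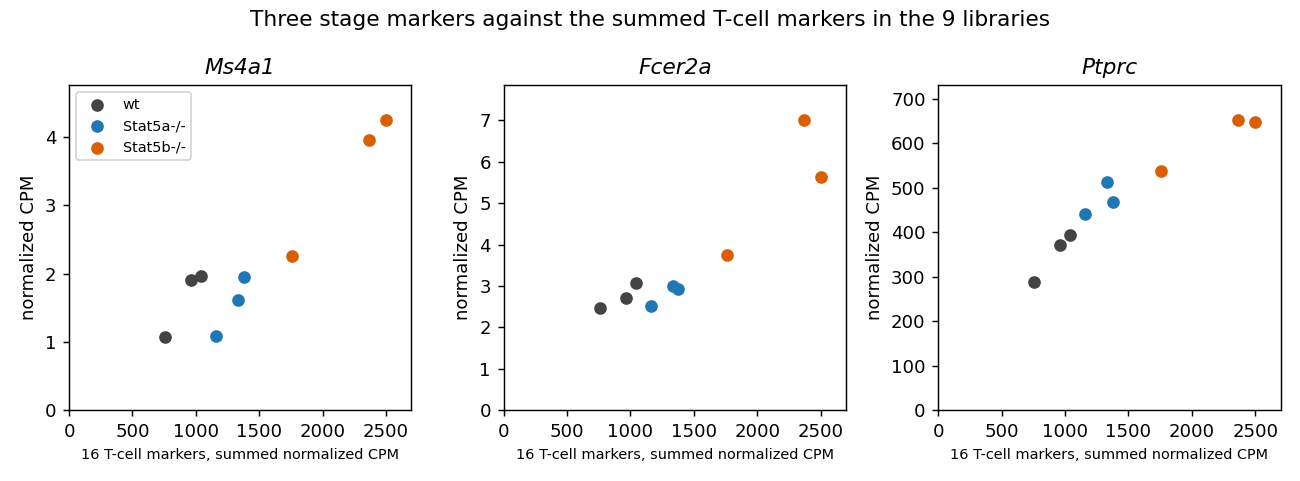
Normalized CPM of Ms4a1, Fcer2a and Ptprc against the summed normalized CPM of 16 T-cell markers, with 1 point for each of the 9 libraries and linear axes from 0. The Stat5b-/- libraries have the largest sums, from 1760 to 2500, and the highest values of all 3 genes.

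Levels of the stage markers were compared with each other per length, as normalized CPM per kb of exon. In wt the order was Cd93 (206 ± 10.0, SD, n = 3), Cd24a (196 ± 9.14), Spn (31.5 ± 2.20), Ptprc (19.2 ± 3.05), Bst1 (16.1 ± 0.379), Cd22 (7.15 ± 0.238), Cr2 (2.00 ± 0.159), Fcer2a (0.892 ± 0.0987) and Ms4a1 (0.267 ± 0.0803). Cd93 and Cd24a overlapped between libraries, as did Ptprc and Bst1. In Stat5a-/- the first places were Cd24a (234 ± 29.9), Cd93 (137 ± 5.83), Bst1 (58.2 ± 2.89) and Spn (47.4 ± 4.19), and further down Ptprc (25.9 ± 1.96) and Cd22 (22 ± 2.71) overlapped. In Stat5b-/- they were Cd24a (309.5 ± 37.7), Cd93 (195 ± 11.1), Spn (62.6 ± 3.87) and Ptprc (33.4 ± 3.54), where Ptprc overlapped with Bst1 (28.9 ± 1.93) and Fcer2a (1.77 ± 0.527) with Cr2 (1.57 ± 0.0669). In each line, the 3 lowest places were held by the later markers Cr2, Fcer2a and Ms4a1. Among all tested genes, the mean levels of Cd24a and Cd93 were above those of 97.4% to 99.3% in each line, and that of Ms4a1 above 7.27% in wt, 7% in Stat5a-/- and 13.5% in Stat5b-/-.

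Gene starts were examined for sequence motifs of B-lineage and STAT factors. RefSeq windows of 250 bases upstream of the annotated start (build GRCm38.p6) were at hand for 5 of the 9 markers, in 8 windows. The start is that of a RefSeq transcript, which for Spn is the start of the gene as counted, for Cr2 is 3 bases before it, and for Cd22 lies 1314 bases inside the gene as counted, so that the Cd22 window is within that gene. The windows are shown for Cd22, which rose in Stat5a-/-, Spn, which stayed within the fold limit, and Cr2, which was not called in any comparison, so that the letters stand beside these values. Capitals mark CCCNNGGG, a core of sites bound by the B-lineage factor EBF1, and CANCTG or its reverse complement, an E-box of the kind E2A binds, and each run reads 5′ to 3′ on the minus strand, the gene's own.
Cd22, chr7:30879029-30879278: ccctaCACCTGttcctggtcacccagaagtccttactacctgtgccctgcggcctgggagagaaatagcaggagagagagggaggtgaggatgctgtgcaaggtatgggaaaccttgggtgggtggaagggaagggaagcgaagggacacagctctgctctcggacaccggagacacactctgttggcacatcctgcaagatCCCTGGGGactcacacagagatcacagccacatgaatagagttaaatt
Spn, chr7:127137824-127138073: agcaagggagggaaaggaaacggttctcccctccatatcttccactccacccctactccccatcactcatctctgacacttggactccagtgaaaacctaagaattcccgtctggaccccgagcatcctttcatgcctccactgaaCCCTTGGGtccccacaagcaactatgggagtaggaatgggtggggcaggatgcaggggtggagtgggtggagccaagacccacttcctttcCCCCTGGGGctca
Cr2, chr1:195176720-195176969: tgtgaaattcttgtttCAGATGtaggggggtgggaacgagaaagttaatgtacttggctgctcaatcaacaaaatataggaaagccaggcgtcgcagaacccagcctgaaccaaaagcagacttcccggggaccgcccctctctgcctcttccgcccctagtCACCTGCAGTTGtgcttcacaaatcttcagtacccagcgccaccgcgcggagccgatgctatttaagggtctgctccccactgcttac

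CCCNNGGG was found in the Cd22 window, 48 to 41 bases before the RefSeq start, and 3 times in the Spn window, where 2 of the matches overlap. Of all 32851 windows of this length, 11.8% hold it. CANCTG was found in 4 of the 8 windows, 1 time for Cd22, 3 times for Cr2, 4 times in a Fcer2a window and 1 time in a Ptprc window, and 44.8% of all windows hold it on either strand. The RefSeq start of that Fcer2a window lies 3314 bases inside the gene as counted. Those of the Ptprc windows, which overlap each other, lie 403 and 582 bases inside theirs. The STAT motif TTCNNNGAA was in 0 of the 8 windows of these markers and in 7.02% of all windows, and GAGGAA, an ETS core, was in a Ptprc window and in 23.3% of all. A core of the interferon-stimulated response element was in 0 of the 8 and in 2.98% of all. A match is no evidence of binding, and its absence says only that the letters are not in that window.

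Genes of the same stages that are not surface markers of this set were counted from lists of known stage genes. Of 16 pro-B genes, 14 were tested. Erg and Ly6d rose and Dntt, Flt3, Il7r, Rag1 and Rag2 fell in Stat5a-/-, and Dntt and Ly6d rose and Rag1, Rag2 and Vpreb2 fell in Stat5b-/-, with medians of 0.041 and 0.12. The background was 7.75% of all tested genes risen and 6.49% fallen in Stat5a-/-, and 10.6% and 8.44% in Stat5b-/-. The Rag genes, which cut the immunoglobulin loci for rearrangement, changed most. Rag1 had 1002 to 1328 reads in wt libraries, 1 to 3 in Stat5a-/- and 7 to 11 in Stat5b-/-, and Rag2 had 477 to 744, 0 to 2 and 6 to 16. Dntt, the polymerase that adds bases at the joints, had 25.3 to 30.1 normalized CPM in wt, 8.46 to 9.44 in Stat5a-/- and 56.6 to 79.5 in Stat5b-/-. It fell in Stat5a-/- (log2 fold change -1.63, adjusted p = 1.44e-06, edgeR) and rose in Stat5b-/- (1.32, 3.44e-06). Vpreb2, a part of the surrogate light chain, fell in Stat5b-/- (-1.90, 7.65e-09) and had 0.25 (0.0538) in Stat5a-/-. Ly6d, a surface protein of committed lymphoid progenitors, rose in both (2.64 and 1.62). Kit and Cd34, stem and progenitor genes, were not tested, with at most 16 and 1 reads in a library. The pro-B genes did not move in a single direction in either line.

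The pre-B transition genes were 5. Their background over all tested genes was 7.75% risen and 6.49% fallen in Stat5a-/-, and 10.6% and 8.44% in Stat5b-/-. In Stat5a-/- Cd2 (log2 fold change 2.33, adjusted p = 1.07e-09, edgeR), Ikzf3 (2.51, 8.41e-09) and Il2ra (1.81, 1.04e-07) rose, with a median of 1.81. In Stat5b-/- Ikzf3 alone rose (2.70, 4.16e-09), with a median of 0.53, and Cd2 had 0.81 (1.60e-05) and Il2ra -0.12 (0.454). Ikzf3 encodes Aiolos, a zinc finger factor of pre-B and later cells, Il2ra the interleukin-2 receptor chain CD25, a pre-B marker of the mouse, and Cd2 an adhesion receptor that mouse B cells gain with the pre-B receptor. Cd2 and Il2ra were lower in Stat5b-/- than in Stat5a-/- (-1.52 and -1.93), as were Bst1 and Cd22.

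Of 22 mature B genes, 21 were tested. In Stat5a-/- 9 rose and 1, Bank1, fell, with a median of 0.54, and in Stat5b-/- 10 rose and Bank1 fell, with a median of 0.99. All tested genes together had 7.75% risen and 6.49% fallen in Stat5a-/-, and 10.6% and 8.44% in Stat5b-/-. Icosl, the costimulatory ligand of ICOS, rose in both (log2 fold changes 3.22 and 2.19, adjusted p = 1.64e-08 and 5.81e-07, edgeR). Fcrla, an Fc receptor-like protein inside B cells, did so too (3.11 and 2.03, 6.55e-09 and 4.39e-07), as did Cxcr5, the follicle-homing chemokine receptor (2.81 and 1.27, 5.53e-08 and 1.30e-04). Tnfrsf13c, the BAFF receptor, rose in Stat5a-/- (2.16, 1.68e-07) and had 0.98 (1.87e-04) in Stat5b-/-. Bank1, an adaptor of B-cell receptor signalling, fell in both (-1.67 and -2.35). Between the knockout lines, 6 genes (Cxcr5, Fcrla, Icosl, Ighd, Ighm and Tnfrsf13c) were lower and 2 (Cd180 and Cd1d1) higher in Stat5b-/-, against backgrounds of 6.6% lower and 4.81% higher. Of the later surface markers, CD22 rose in Stat5a-/- beside these 9 genes (log2 fold change 1.62), while CD21, CD23 and CD20 did not. With the T-cell covariate, 4 of the mature B genes were called in Stat5b-/- against wt, 3 of them higher, where that fit called 747 higher and 733 lower of all 13852 genes, beside 1471 and 1169 without the covariate.

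**Figure D4:**
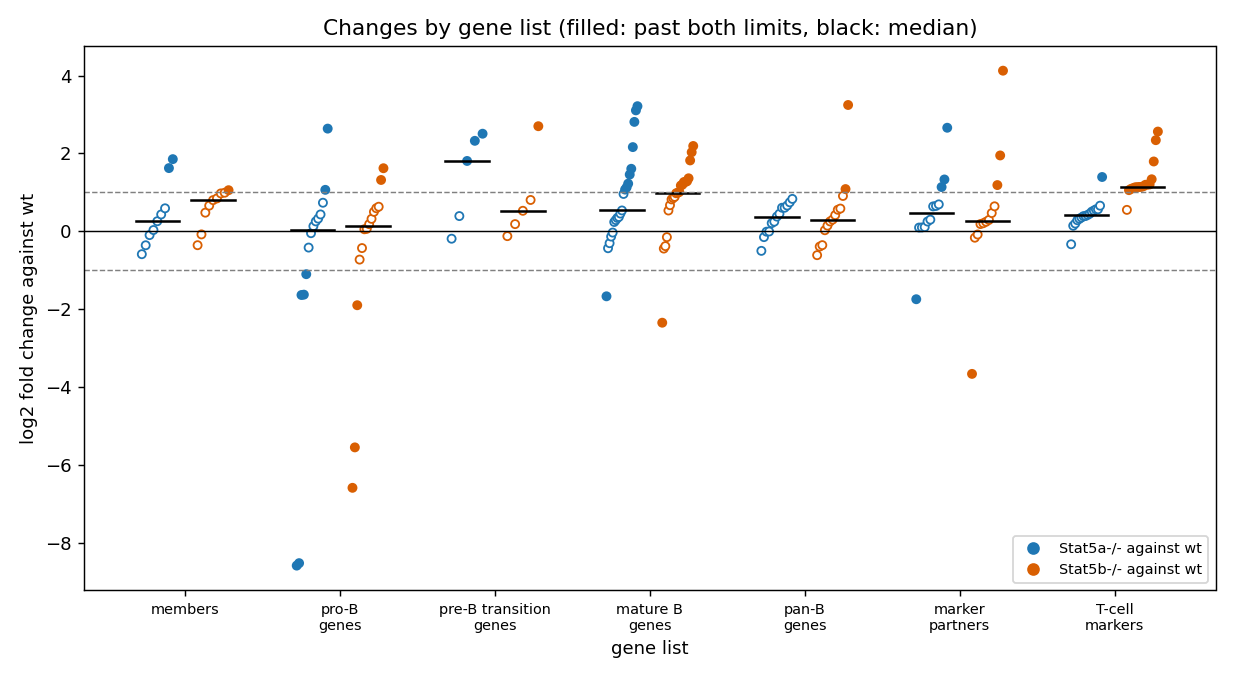
Log2 fold changes against wt of the tested genes in each list, blue for Stat5a-/- and orange for Stat5b-/-, with filled points past both limits, dashed lines at the fold limit and black bars for the medians. The medians of the mature B genes are 0.54 and 0.99 and those of the T-cell markers 0.41 and 1.15. The points below -5 are Rag1 and Rag2, whose fitted values rest on 0 to 16 reads in the knockout libraries and depend on the fit's prior count.

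Proteins that act with the markers were counted as well. Of 12 partners, all tested, 3 rose and Cd38 fell in each knockout line. Over all tested genes, 7.75% rose and 6.49% fell in Stat5a-/-, and 10.6% and 8.44% in Stat5b-/-. Gcnt1 encodes the enzyme that branches the sugars of CD43 and gives its heavily glycosylated form. It had 1.21 to 1.92 normalized CPM in wt, 9.47 to 10.5 in Stat5a-/- and 25.2 to 29.9 in Stat5b-/-, with log2 fold changes of 2.66 (standard error 0.18, adjusted p = 8.96e-08, edgeR) and 4.13 (0.17, 1.02e-09). Its order over the lines was that of Spn, with much larger steps. Siglecg, a sialic acid-binding inhibitory receptor like Cd22, rose in both (1.33 and 1.95), with 0.62 (0.00281) between the knockout lines, where Cd22 had -1.15. St6gal1, which makes the sialic acid linkage that CD22 binds, rose in Stat5b-/- (1.19, 3.79e-07) and had 0.64 (1.25e-04) in Stat5a-/-. Ezr, a linker of CD43 and the cytoskeleton, rose in Stat5a-/- (1.14, 3.75e-06) and had 0.21 (0.148) in Stat5b-/-.

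The 13 pan-B genes served as a reference for the lineage as a whole. By both limits 0 changed in Stat5a-/- with edgeR and 0 with DESeq2, and 7 passed an adjusted or an unadjusted p of 0.05 alone with edgeR. Of all tested genes, 14.2% passed both limits in that comparison and 36% the adjusted p alone. Blk, a Src-family kinase, and Cd79a, a signalling chain of the B-cell receptor, rose in Stat5b-/-, where 10.6% of all tested genes rose. Cd79a had a log2 fold change of 1.09 (adjusted p = 2.22e-05, edgeR) and Blk 3.25 (3.37e-06) from 4 to 9 reads in a wt library. Cd72, an inhibitory lectin, was higher in Stat5b-/- than in Stat5a-/- by 1.06. Cd79b had 0.75 and 0.15 against wt and Pax5 -0.0049 and -0.39, neither of them past the fold limit.

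**Figure D5:**
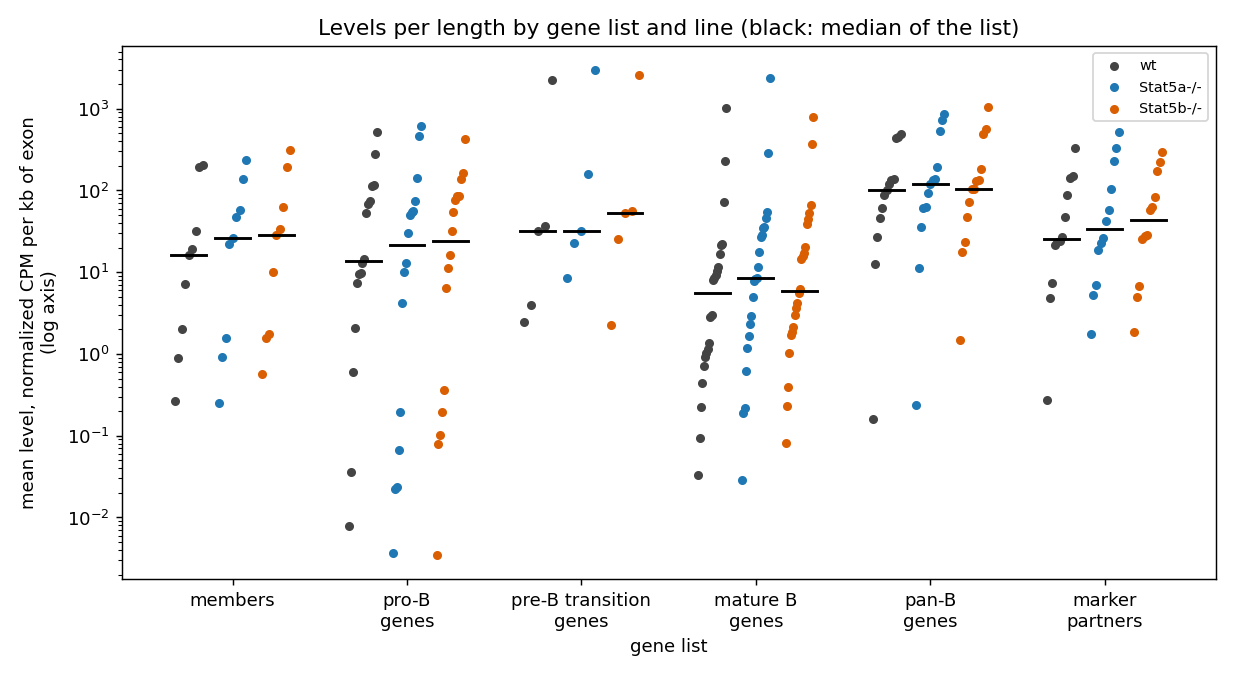
Mean level of each gene in the B-lineage lists, in normalized CPM per kb of exon on a log axis, by cell line, with black bars for the list medians. The stage markers span from 0.267 for Ms4a1 to 206 for Cd93 in wt, and the Rag genes are the pro-B points that are low in both knockout lines and not in wt.

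Markers of other cells had lower sums than the T-cell set. Of 14 myeloid markers 8 had at most 10 reads in every library and 5 were tested, and Ly6c2, Cd68 and Lyz2 were the highest by normalized CPM. Csf1r, Ly6c2 and Lyz2 rose in Stat5b-/- and Fcgr1 fell in both knockout lines, and the sum lay between 172 and 221 normalized CPM in wt, 270.0 and 300.4 in Stat5a-/- and 354 and 447 in Stat5b-/-, most of it Ly6c2. Of 6 plasma-cell markers Jchain and Xbp1 rose in Stat5a-/-, Irf4 and Prdm1 rose in Stat5b-/-, and Sdc1 fell in both (log2 fold changes of -3.07 and -2.08). Of 8 erythroid markers 6 had at most 10 reads in every library, and Hbb-bt and Klf1 fell in Stat5b-/-. Beside these, 7.75% of all tested genes rose and 6.49% fell in Stat5a-/-, and 10.6% and 8.44% in Stat5b-/-. The part of these markers of other cells in the values of the stage markers was not tested.

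The nearest tested gene on each side of the other markers was examined as well. Those of Spn (Qprt and Cd2bp2), Cd24a (1700021F05Rik and F930017D23Rik) and Cr2 (Cr1l) did not pass both limits against wt, nor did the other neighbours of Cd22 (Usf2) and Bst1 (Cpeb2). Beside Ms4a1, Gm28935 rose in Stat5b-/- (log2 fold change 1.41, adjusted p = 0.00113, edgeR), 96.0 kb away, from a wt mean of 2.40 normalized CPM. Gm6501, on the other side, had -0.42 (0.426). Beside Fcer2a, Cd209b rose in Stat5b-/- (1.31, 0.00376) from a wt mean of 1.69 normalized CPM, while Trappc5, 0.482 kb away, had -0.11 (0.464). Beside Ptprc and Cd93, Gm4258 (1.41, 0.0126) and Gm14119 (1.16, 5.24e-04) rose in Stat5b-/-, from wt means of 0.348 and 3.09 normalized CPM. Nek7 and Nxt1, on the other sides of Ptprc and Cd93, had -0.10 (0.550) and 0.16 (0.545). Changes from such low levels are imprecise.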

How the data were processed

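RNA-seq was measured in 9 mouse libraries. The authors trimmed 50 bp single-end reads with Trimmomatic, mapped them with STAR, and counted them on GENCODE M13 exons (GRCm38) with featureCounts 1.5.1. They deposited whole-number counts for 50686 genes, without normalization. The counting command held no strand or multi-mapping option, so antisense, overlapping and repeated sequence is uncertain. Gene symbols came from GENCODE M21 and named 50376 genes. Replicate numbers and groups came from the titles.

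TMM scaling and the tests used edgeR 4.0.16 (R 4.3.3, filterByExpr, glmQLFit and glmQLFTest on all 9 libraries, 13852 genes, Benjamini-Hochberg adjustment), with the study's limits (adjusted p of 0.05, absolute log2 fold change of 1). A standard error was the size of a log2 fold change divided by the root of its F statistic. Lengths were union exon lengths. Fold changes of genes with few reads are imprecise at this depth, and reads are not independent molecules.

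The markers and gene lists were chosen with earlier results of these data known. Named beside the 9 markers were Stat5a, Stat5b, Cd79a, Cd79b and Pax5, the 5 genes with the largest change among those called in each B-lineage list, the 3 genes highest by normalized CPM in each other list, the nearest tested genes, and the 2 genes most like each marker. A further gene of this rule is not reported here. Other names, such as those in counts of a list, Kit and Cd34, were given after their values were seen. Alternatives were DESeq2 1.42.0, RLE factors, other count filters, fits of 2 groups, other call limits, a replicate block and leaving out each library, and, after seeing the data, a GC offset and a T-cell covariate. The scripts were tested on simulated data.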

Additional observations from a re-analysis of the deposited data

How the results depend on the processing

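Of 486 alternative values of a marker's log2 fold change, 444 kept their direction and their call by both limits together, 24 changed sign, 9 gained a call and 9 lost one. In 2 of the 24 (Ms4a1 in Stat5b-/- against either line, with the T-cell covariate) a call was lost too. Of the 444, 33 crossed the adjusted p limit alone, among them Cr2 in Stat5b-/- against wt (0.0104 to 0.0493 in 7 values, beside 0.0588) and Ptprc between the knockout lines (0.0535 to 0.131 in 9, beside 0.0427). The changes of sign were in values near 0, other than with the T-cell covariate. They were Cr2 in Stat5b-/- against Stat5a-/- (-0.0093 with DESeq2, -0.0084 with RLE factors, -0.12 with the GC offset, -0.11 with the GC offset and replicate block, -0.34 with the T-cell covariate), Fcer2a in Stat5a-/- against wt (-0.045, -0.045 and -0.52 under the last 3 settings) and Ms4a1 in Stat5a-/- against wt (0.036 and 0.030 with the GC offset, without and with the block). Leaving out a library gave Cr2 -0.13 to 0.080, Fcer2a -0.039 to 0.12 and Ms4a1 -0.31 to 0.057 in these comparisons. With the covariate, signs also turned in Stat5b-/- against wt (Ms4a1 -1.42, Fcer2a -0.45, Ptprc -0.12) and against Stat5a-/- (Ms4a1 -0.38, Ptprc -0.20), where Cd22 (-0.87) and Bst1 (-0.98) fell within the fold limit, so that 0 markers were called, where that fit called 411 higher and 643 lower of all genes, beside 666 and 914. The cause was not tested.

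By adjusted p alone, 5, 7 and 8 markers were called in Stat5a-/- against wt, Stat5b-/- against wt and Stat5b-/- against Stat5a-/-, 7, 9 and 5 pan-B genes, 11 and 9 pro-B genes in the last 2 and 20 mature B genes in Stat5b-/- against wt, since that rule has no fold limit. Over all genes it called 4993, 6397 and 4698, beside 1973, 2640 and 1580 by both limits. Testing against the fold limit itself called 0 markers in the last 2 comparisons, 6, 4 and 3 mature B genes, 1 and 1 pan-B genes and 2 pro-B genes in the last, and over all genes 636 higher and 581 lower, 634 and 727, and 261 and 502. A fit of the 2 knockout lines alone called 3 pro-B genes, as Rag1 and Rag2 then failed the filter. With the T-cell covariate 4 mature B genes were called in Stat5b-/- against wt.

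Leaving out each library in turn gave 2 to 2, 0 to 2 and 1 to 4 markers in the 3 comparisons, 6 to 7, 5 to 6 and 4 to 5 pro-B genes, 9 to 10, 9 to 12 and 5 to 8 mature B genes, and 0 to 0, 1 to 2 and 2 to 3 pan-B genes. Over all genes these fits called 1003 to 1123 higher and 884 to 967 lower in Stat5a-/- against wt. They called 1237 to 1608 and 1154 to 1265 in Stat5b-/- against wt, and 588 to 796 and 865 to 972 between the knockout lines. In Stat5b-/- against wt, Ms4a1 lost its call without wt replicate 1, Stat5b-/- replicate 1 or Stat5b-/- replicate 3, and 0 markers were called without Stat5b-/- replicate 1, though 7 passed the adjusted p alone with all libraries. That fit called 1237 higher and 1265 lower of 14139 genes, beside 1471 and 1169 of 13852 with all libraries.

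Deviations from the line means were not shared by libraries of 1 replicate number, with a mean r of -0.088 over 9 pairs (-0.45 to 0.22), against 0.044 over 18 pairs with different numbers. The replicate block called 1060 higher and 881 lower genes in Stat5a-/- against wt, 1438 and 1157 in Stat5b-/- against wt, and changed no call of a marker by both limits, while Ptprc between the knockout lines had an adjusted p of 0.0881.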

Other observations

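For each marker, the tested genes with at least 5 normalized CPM on average were ranked by Pearson's r of their log2 levels with it over the 9 libraries. With 3 lines, such values are high for many genes, and they are given as a description. The 2 genes nearest to Ms4a1 were Gpr65 (r = 0.99) and Cracr2a (0.99), and those nearest to Fcer2a were Gimap6 (0.98) and Cd226 (0.97). Those of Bst1 were Cybb and Atp1b1, of Cd22 Rgs8 and Kansl1, of Cd24a Gadd45a and Prdx4, of Spn Acap1 and Cotl1, of Cd93 Tfdp2 and Fhl1, of Ptprc Gbp4 and Tnfrsf1a, and of Cr2 Brix1 and Uba6, with r between 0.97 and 1.00. Library deviations also followed the GC content of the genes, with r between -0.48 and 0.52 over 13824 genes.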
